A study of Homo sapiens with 12 samples.

Results

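The 10 genes described here encode brakes on MAP kinase signalling: DUSP1, DUSP2, DUSP4, DUSP5, DUSP6, DUSP8, DUSP10 and DUSP16, which encode dual-specificity phosphatases, and SPRY2 and SPRY4, which encode Sprouty proteins. They, and the gene lists used below, were chosen by name with earlier results of these data known. Counts set beside shares over all genes are therefore descriptions and not tests. For each of the 10 genes the array feature that the platform annotation maps to that gene alone was taken. All 10 were found among the 18417 genes measured, each with a single feature. Transcript levels came from the human breast cancer line MDA-MB-231, an established line that lacks hormone receptors and ERBB2 amplification. The 4 groups were TTR cells (treated to resistance) with TRAIL, TTR cells without TRAIL, parental cells with TRAIL and parental cells without TRAIL, with 3 one-colour arrays each and 12 in all. TRAIL, the ligand of the death receptors TNFRSF10A and TNFRSF10B, was added at 100 ng per ml, and cells were exposed for 2 hours. The labels do not say how many clones make up the TTR cells, or that the 3 arrays of a group came from separate cultures, so p-values here reflect array-to-array spread alone, which may be technical. A tag in the sample descriptions, not explained in the sources used here, also has one form in TTR and another in parental arrays and cannot be told apart from the line.

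MAP kinases (ERK, JNK and p38) are switched on by phosphorylation of a threonine and a tyrosine in one loop of the enzyme. Dual-specificity phosphatases of this family remove both phosphates, and several are themselves transcribed in response to MAP kinase activity, which closes a feedback loop. DUSP1, DUSP2, DUSP4 and DUSP5 encode nuclear, inducible enzymes, DUSP6 encodes a cytoplasmic enzyme selective for ERK, and DUSP8, DUSP10 and DUSP16 encode enzymes that prefer JNK and p38. Sprouty proteins act further upstream, between receptor tyrosine kinases and RAF, and are also feedback products of ERK signalling. MDA-MB-231 cells carry mutations that keep the RAS-RAF-ERK route active without added ligand.

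The values are RMA summaries on a log2 scale, in which a difference of 1 is a 2-fold difference, and levels of different genes cannot be set against each other. The 3 TRAIL-treated parental arrays were set off from the rest: their median over all features was 4.58 to 4.61, against 4.24 to 4.40 in the 9 other arrays. Across features, their correlation with arrays of any other group was 0.921 to 0.963, while between arrays of the remaining groups it was 0.984 to 0.992. The array median was 0.11 higher with TRAIL in TTR cells and 0.29 higher in parental cells, and each call for the 10 genes that ends after centring arrays on their medians or after quantile normalization is named below. All 7 measured mesenchymal markers of the line, such as VIM and CD44, lay above the array median on all 12 arrays. Of 10 luminal breast markers 7 lay below it on all 12 arrays, among them ESR1, PGR and CDH1, and 2 lay above it on all 12 (GATA3 at 0.17 to 0.74 and SPDEF at 1.63 to 2.32 above). Of 5 measured blood cell markers 3 lay below it, among them PTPRC, CD14 lay on both sides (−0.35 to 0.40) and CD68 above (4.64 to 5.29). Of 8 fibroblast and endothelial markers 6 lay below it and COL1A1 above (0.85 to 1.35). The mean level of the mesenchymal markers above the array median was 5.57 to 5.78 on the TRAIL-treated parental arrays and 6.45 to 6.79 on the others, and its part in the results was not tested.

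Promoter sequence was at hand for 8 of the 10 genes, all but DUSP4 and DUSP5. It came in 11 windows of 300 bases (250 before the annotated start site and 50 from it on) from RefSeq, build GRCh38.p14. Those of DUSP1, DUSP2, DUSP6, DUSP8 and SPRY4 are shown, the 5 genes that were called with TRAIL in parental cells and have a single window, so that each can be read beside its response. DUSP10 and SPRY2, also called, have 2 and 3 windows, and for DUSP5, also called, no window was at hand. The windows shown lie on the minus strand at chr5:172771146-172771445 (DUSP1), chr2:96145391-96145690 (DUSP2), chr12:89352452-89352751 (DUSP6), chr11:1572222-1572521 (DUSP8) and chr5:142324198-142324497 (SPRY4). Capitals mark matches, on either strand, to the cAMP response element TGACGTCA, its half-site TGACG, the EGR element GCGGGGGCG or the TATA box TATAAA.
DUSP1: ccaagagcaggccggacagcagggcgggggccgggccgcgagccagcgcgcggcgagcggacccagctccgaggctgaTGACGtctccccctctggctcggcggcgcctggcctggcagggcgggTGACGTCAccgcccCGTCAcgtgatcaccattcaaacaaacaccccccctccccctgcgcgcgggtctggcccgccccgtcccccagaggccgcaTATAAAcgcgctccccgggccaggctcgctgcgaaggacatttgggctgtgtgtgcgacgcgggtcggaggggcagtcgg
DUSP2: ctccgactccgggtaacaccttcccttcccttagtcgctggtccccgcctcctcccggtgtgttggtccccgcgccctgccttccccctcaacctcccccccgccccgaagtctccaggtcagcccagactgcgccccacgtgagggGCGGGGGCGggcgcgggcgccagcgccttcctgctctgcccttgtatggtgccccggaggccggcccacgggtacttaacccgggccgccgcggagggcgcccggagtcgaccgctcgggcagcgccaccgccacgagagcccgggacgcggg
DUSP6: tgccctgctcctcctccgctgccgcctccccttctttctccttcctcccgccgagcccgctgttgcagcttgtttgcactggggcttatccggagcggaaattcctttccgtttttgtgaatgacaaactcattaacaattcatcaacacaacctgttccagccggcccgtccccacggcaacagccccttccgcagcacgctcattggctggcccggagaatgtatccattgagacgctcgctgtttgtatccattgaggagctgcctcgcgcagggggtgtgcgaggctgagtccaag
DUSP8: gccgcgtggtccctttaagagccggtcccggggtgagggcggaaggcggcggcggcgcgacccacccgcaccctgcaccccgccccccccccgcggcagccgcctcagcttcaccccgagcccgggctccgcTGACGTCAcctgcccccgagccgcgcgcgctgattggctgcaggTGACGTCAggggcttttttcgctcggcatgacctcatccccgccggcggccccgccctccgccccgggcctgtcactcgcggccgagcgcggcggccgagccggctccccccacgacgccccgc
SPRY4: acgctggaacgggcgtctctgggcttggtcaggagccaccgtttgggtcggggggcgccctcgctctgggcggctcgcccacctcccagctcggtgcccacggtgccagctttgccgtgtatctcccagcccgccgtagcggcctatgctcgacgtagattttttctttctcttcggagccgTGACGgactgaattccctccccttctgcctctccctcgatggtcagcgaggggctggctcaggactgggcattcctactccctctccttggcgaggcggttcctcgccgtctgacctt

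The full element TGACGTCA was present in the DUSP1 window, at positions −125 to −118 (−1 being the base before the start site), and at 2 places in the DUSP8 window, −118 to −111 and −74 to −67. It was found in 1.85% of the 35116 promoter windows of the table. The half-site TGACG, which the full element contains on both strands, was found in 5 of the 11 windows, 1 each of DUSP1, DUSP8, DUSP10, SPRY2 and SPRY4, against 24.6% of all windows. The TATA box was found in 1 of the 11 windows, that of DUSP1, at −30 to −25, against 11.5% of all windows. The EGR element, which overlaps the SP1 element GGGCGG at its position in DUSP2, was found in 2 of the 11 windows, that of DUSP2 and the first of SPRY2, against 5.07% of all windows. The AP-1 element TGANTCA (7.71% of all windows), the ETS element CCGGAAG (10.3%), the CArG box bound by serum response factor (1.29%) and the kappaB element (11.3%) were found in 0 of the 11 windows. SP1 elements were found in 9 of the 11 windows, against 45% of all windows, and in none of DUSP6. A match is a description of these letters and not of a bound site, and DUSP4 and DUSP5 were not searched.

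The first comparison asked how these brakes responded to TRAIL in parental cells. Of the 10 genes, 7 rose and 1 fell, and the largest rise was that of DUSP1 at 19.6-fold. Over all genes 28.9% were called higher and 29.9% lower by limma at an adjusted p under 0.05, so 7 of 10 stands beside 28.9% and 1 of 10 beside 29.9%. The median change of the 10 genes was 0.67, beside 0.05 for all genes. Of the 7 rises, 4 were at least 2-fold. The values below give each gene array by array.

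**Figure D1:**
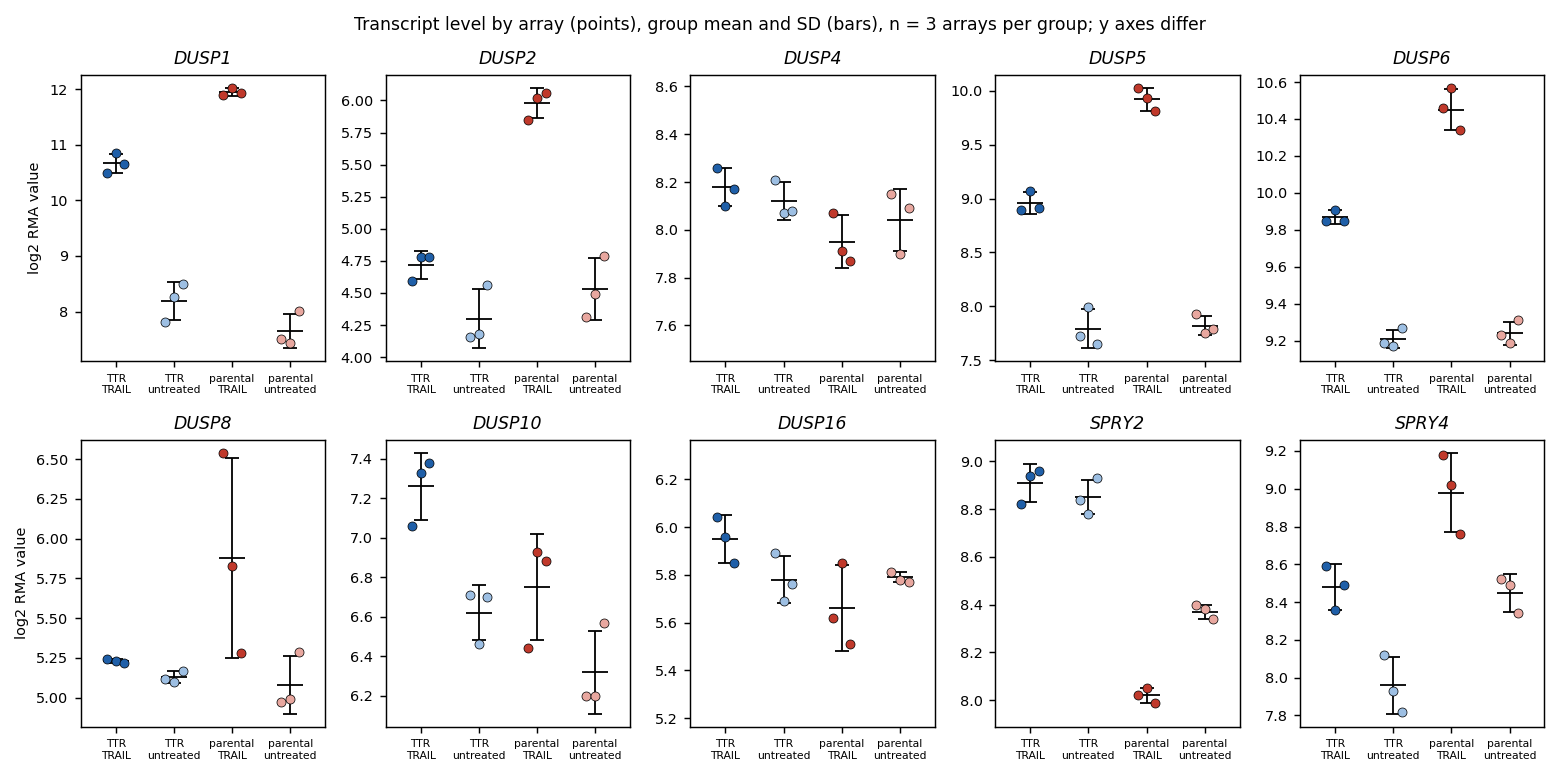
Each panel plots one gene, with the log2 RMA value on the y axis and the 4 groups on the x axis; points are arrays and bars are the group mean and SD (n = 3). DUSP1, DUSP5 and DUSP6 separate all TRAIL-treated from all untreated arrays, and DUSP2 and SPRY4 do so only within each line. SPRY2 separates TTR from parental arrays. The 3 TRAIL-treated parental arrays of DUSP8 spread from 5.28 to 6.54.

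Among the nuclear phosphatases, DUSP1, which acts on p38, JNK and ERK, stood at 11.89, 12.03 and 11.93 in TRAIL-treated parental cells, against 7.51, 7.43 and 8.01 in untreated parental cells. All treated arrays lay far above all untreated ones, a rise of 4.29 ± 0.17 (log2 change ± SE from limma, as below, n = 3 arrays per group, adjusted p = 7.96e-12). Its rank by size of rise was 23 among the 18417 genes, counted from the highest. DUSP5, which is selective for ERK, read 10.03, 9.93 and 9.81 with TRAIL, against 7.93, 7.75 and 7.79 without it, and rose 4.28-fold (2.10 ± 0.11, adjusted p = 1.55e-10). DUSP2, first described in lymphocytes, read 5.85, 6.02 and 6.06 with TRAIL, against 4.31, 4.49 and 4.79 without it. It rose 2.73-fold (1.45 ± 0.13, adjusted p = 8.92e-08), and its groups did not overlap either. The level of DUSP2 minus the array median was −0.14 to 1.48 over the 12 arrays, so part of the untreated signal can be background. DUSP4, the near relative of DUSP1 and DUSP2 that acts on ERK and JNK, did not follow them. It read 8.07, 7.91 and 7.87 with TRAIL, against 8.15, 7.90 and 8.09 without it. The ranges overlapped, and the change of −0.10 (95% confidence interval −0.31 to 0.12, adjusted p = 0.434) did not pass.

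DUSP6, the cytoplasmic ERK phosphatase, read 10.46, 10.57 and 10.34 with TRAIL in parental cells, against 9.23, 9.19 and 9.31 without it. The groups did not overlap, and the gene rose 2.32-fold (1.21 ± 0.09, adjusted p = 8.13e-09).

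Of the phosphatases of JNK and p38, DUSP8 and DUSP10 rose and DUSP16 did not pass. DUSP8 read 6.54, 5.83 and 5.28 with TRAIL, against 4.97, 4.99 and 5.29 without it. Of the treated arrays, 2 lay above every untreated one and the other did not, with an SD of 0.63 among treated arrays. DUSP8 passed (0.80 ± 0.21, adjusted p = 0.00344), and its change was 0.47 to 1.10 over the alternatives tried. DUSP10 read 6.44, 6.93 and 6.88 with TRAIL, against 6.2, 6.2 and 6.57 without it. The ranges overlapped, and the rise of 0.43 ± 0.14 (adjusted p = 0.0168) was the smallest that passed. DUSP16 read 5.62, 5.85 and 5.51 with TRAIL, against 5.81, 5.78 and 5.77 without it, and did not pass (−0.13, 95% confidence interval −0.35 to 0.09, adjusted p = 0.312).

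The Sprouty genes went opposite ways. SPRY4 read 9.18, 9.02 and 8.76 with TRAIL, against 8.52, 8.49 and 8.34 without it. It rose 1.45-fold (0.54 ± 0.12, adjusted p = 9.91e-04), and its groups did not overlap. SPRY2 read 8.02, 8.05 and 7.99 with TRAIL, against 8.40, 8.38 and 8.34 without it. All treated arrays lay below all untreated ones, and the gene fell 1.28-fold (−0.36 ± 0.09, adjusted p = 0.00224). The smaller calls depended on scaling or on single arrays. After median centring DUSP10 (0.14, adjusted p = 0.404, range over alternatives 0.00202 to 0.404) and SPRY4 (0.25, adjusted p = 0.0876, range 2.93e-05 to 0.0876) no longer passed, and DUSP4 (−0.39, adjusted p = 0.00319, range 0.00319 to 0.763) and DUSP16 (−0.42, adjusted p = 0.00186, range 0.00186 to 0.723) fell, which made 5 higher and 3 lower. Over all genes median centring called 2328 higher and 8608 lower. After quantile normalization SPRY2 did not pass (−0.09, adjusted p = 0.456, range 6.76e-06 to 0.456), which left 7 higher and 0 lower, beside 3524 higher and 5783 lower over all genes. DUSP10 was also lost without TRAIL-treated parental array 2 (0.34, adjusted p = 0.0804) or 3 (0.36, adjusted p = 0.0653), or without untreated parental array 1 (0.37, adjusted p = 0.0704) or 2 (0.36, adjusted p = 0.0708).

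The same dose was then followed in TTR cells. Of the 10 genes, 5 rose by limma and 0 fell, with 6 higher and 0 lower at an unadjusted p under 0.05. The share called at an adjusted p under 0.05 was 3.27% higher and 2.55% lower over all genes. At an unadjusted limma p under 0.05, 3794 of the 18417 genes passed in either direction. The median change of the 10 genes was 0.47, beside −0.01 for all genes. DUSP1 and DUSP5 were the rises of at least 2-fold.

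DUSP1 read 10.50, 10.85 and 10.65 in TRAIL-treated TTR cells, against 7.81, 8.26 and 8.50 in untreated TTR cells. It rose 5.56-fold (2.48 ± 0.17, adjusted p = 7.41e-08), with every treated array above every untreated one. Its rank by size of rise in this line was 19. DUSP5 read 8.89, 9.07 and 8.91 with TRAIL, against 7.72, 7.99 and 7.65 without it, and rose 2.25-fold (1.17 ± 0.11, adjusted p = 3.23e-06). DUSP2 read 4.59, 4.78 and 4.78 with TRAIL, against 4.16, 4.18 and 4.56 without it. Its groups lay close but did not overlap, and it did not pass (0.41 ± 0.13, adjusted p = 0.0823). In this comparison the replicate number was taken to pair the arrays, because deviations of same-numbered arrays correlated at 0.15 to 0.40. The labels do not state a pairing. With the number as a block DUSP2 passed (adjusted p = 0.0201, range over alternatives 0.00952 to 0.264). It also passed with array weights (0.47, adjusted p = 0.00952) and without untreated TTR array 3 (0.54, adjusted p = 0.0389). DUSP4 again stayed near its untreated level, at 8.26, 8.10 and 8.17 with TRAIL, against 8.21, 8.07 and 8.08 without it (0.06, 95% confidence interval −0.15 to 0.27, adjusted p = 0.814).

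DUSP6 read 9.85, 9.91 and 9.85 with TRAIL in TTR cells, against 9.19, 9.17 and 9.27 without it. These narrow groups did not overlap, and the gene rose 1.58-fold (0.66 ± 0.09, adjusted p = 2.92e-04). Of the JNK and p38 phosphatases, DUSP10 read 7.06, 7.33 and 7.38 with TRAIL, against 6.71, 6.46 and 6.70 without it. All treated arrays were higher, and it rose 1.55-fold (0.64 ± 0.14, adjusted p = 0.0162). DUSP8 read 5.24, 5.23 and 5.22 with TRAIL, against 5.12, 5.10 and 5.17 without it. The arrays of each group lay close together and apart from the other group, but the change of 0.10 ± 0.21 did not pass (adjusted p = 0.855). Its SD was 0.01 among treated and 0.04 among untreated TTR arrays, and 0.63 among treated parental arrays, which enter the same fit. DUSP8 passed in none of the 22 alternatives (limma adjusted p 0.454 to 0.99), which include fits without the treated parental arrays. DUSP16 read 6.04, 5.96 and 5.85 with TRAIL, against 5.89, 5.69 and 5.76 without it (0.17, 95% confidence interval −0.05 to 0.39, adjusted p = 0.383).

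SPRY4 read 8.59, 8.36 and 8.49 with TRAIL in TTR cells, against 8.12, 7.93 and 7.82 without it, and rose 1.44-fold (0.53 ± 0.12, adjusted p = 0.0169). SPRY2 read 8.82, 8.94 and 8.96 with TRAIL, against 8.84, 8.78 and 8.93 without it. The ranges overlapped, and it did not pass (0.06, 95% confidence interval −0.13 to 0.24, adjusted p = 0.789). Both DUSP10 and SPRY4 were lost without untreated TTR array 2 (adjusted p = 0.0900 and 0.0713), which left 3 called genes. DUSP10 was also lost without TRAIL-treated TTR array 2 (0.0849) or 3 (0.0632), and SPRY4 without TRAIL-treated TTR array 1 (0.0842) or untreated TTR array 3 (0.0781). Their adjusted p ranged over all alternatives from 0.001 to 0.0900 for DUSP10 and from 0.00151 to 0.0842 for SPRY4. With the TRAIL-treated parental arrays out of the fit, 5 genes again rose.

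**Figure D2:**
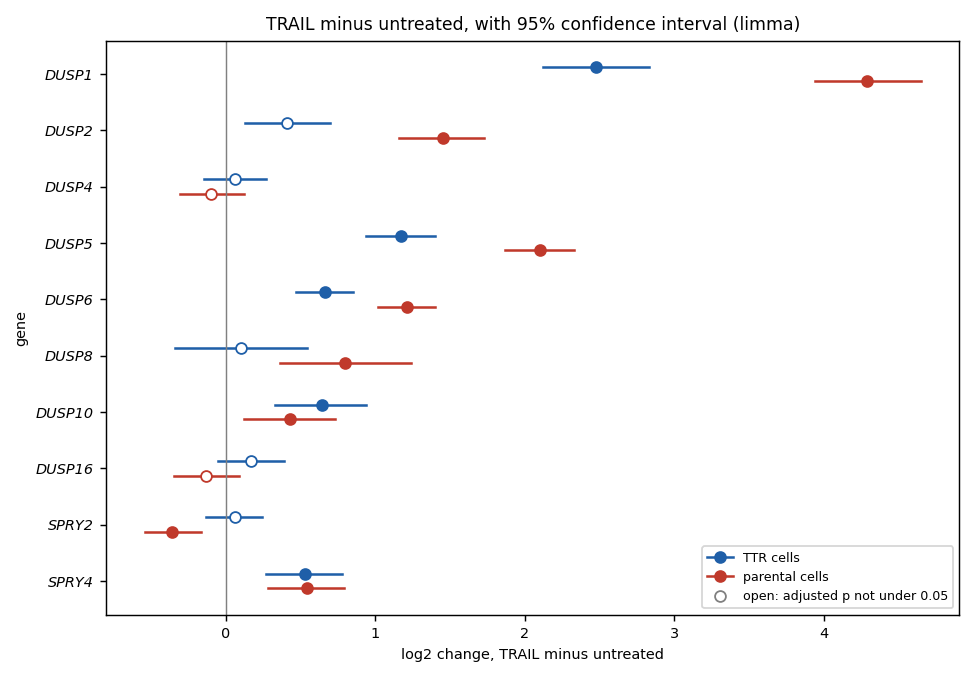
The x axis gives the log2 change with TRAIL (TRAIL minus untreated) and the y axis the genes, TTR cells in blue above parental cells in red; points are limma estimates, lines their 95% confidence intervals, and open points did not pass. For DUSP1, DUSP2, DUSP5 and DUSP6 the TTR intervals lie wholly below the parental ones, while those of DUSP10 and SPRY4 overlap.

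The difference between the lines in the response to TRAIL was itself tested, taking the change in TTR cells minus that in parental cells. Of the 10 genes, 4 lay below 0 and 1 above it, beside 14.3% below and 22.9% above over all genes, and the median difference was −0.28, beside −0.03. DUSP1 changed by 2.48 in TTR and 4.29 in parental cells, a difference of −1.82 ± 0.24 (adjusted p = 1.82e-05). For DUSP2 the changes were 0.41 and 1.45 (−1.03 ± 0.19, adjusted p = 3.79e-04). DUSP5 changed by 1.17 in TTR and 2.10 in parental cells (−0.93 ± 0.15, adjusted p = 1.46e-04), and DUSP6 by 0.66 and 1.21 (−0.55 ± 0.13, adjusted p = 0.00281). On the log2 scale the TTR change was 57.7%, 55.7% and 54.5% of the parental one for DUSP1, DUSP5 and DUSP6. It was 98.1% for SPRY4 and 149% for DUSP10, the other genes called in both lines.

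SPRY2 was the gene above 0, with 0.06 in TTR and −0.36 in parental cells (0.41 ± 0.12, adjusted p = 0.0147), a call lost after quantile normalization (0.17, adjusted p = 0.349, range over alternatives 0.00102 to 0.349). SPRY4 changed by 0.53 in TTR and 0.54 in parental cells, and the difference of −0.01 had a 95% confidence interval of −0.37 to 0.35 (adjusted p = 0.972). DUSP10 had the larger estimate in TTR cells, 0.64 against 0.43 in parental cells, and the difference did not pass (0.21, 95% confidence interval −0.22 to 0.64, adjusted p = 0.458). The differences for DUSP8 (−0.70, 95% confidence interval −1.32 to −0.07, adjusted p = 0.0745), DUSP16 (0.30, −0.01 to 0.61, adjusted p = 0.126) and DUSP4 (0.15, −0.14 to 0.45, adjusted p = 0.425) did not pass. DUSP8 passed with array weights (−0.75, adjusted p = 0.0264) and without TRAIL-treated parental array 3 (−1, adjusted p = 0.00209, range over alternatives 0.00209 to 0.197). DUSP16 passed with array weights (0.38, adjusted p = 0.0376), without TRAIL-treated parental array 2 (0.39, adjusted p = 0.0336) and after median centring (0.48, adjusted p = 0.0128, range 0.0128 to 0.257). Median centring made 2 above and 4 below, beside 5410 above and 1275 below over all genes. Quantile normalization made 0 above and 4 below, beside 3937 above and 2300 below.

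**Figure D3:**
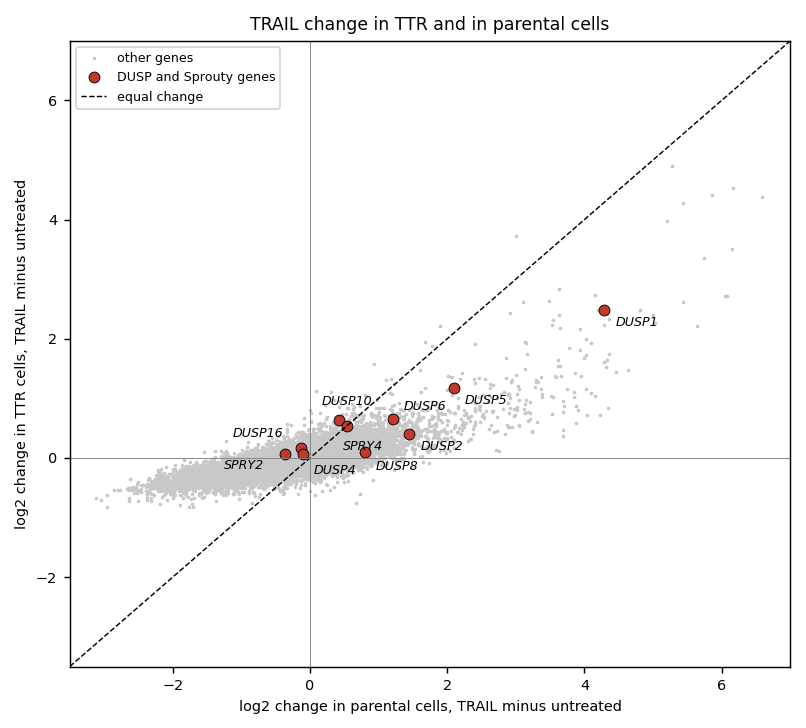
Each point is a gene, with its log2 change with TRAIL in parental cells on the x axis and in TTR cells on the y axis; the 10 genes are red, the other genes grey, and the dashed line marks equal change. DUSP1, at 4.29 and 2.48, lies far from the bulk of genes. Among the genes called in both lines, DUSP10 and SPRY4 lie closest to the dashed line, and DUSP4 and DUSP16, called in neither line, also lie near it.

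TTR and parental cells were next compared without TRAIL, which asked whether the brakes differed before the ligand was added. In TTR cells 1 gene was higher and 1 lower, beside 3.64% higher and 3.47% lower over all genes. The median difference of the 10 genes was 0.02, beside −0.01. SPRY2 was 1.39-fold higher in TTR cells, at 8.85 (SD 0.07) in TTR and 8.37 (SD 0.03) in parental cells (0.48 ± 0.09, adjusted p = 0.00288), with no overlap between the arrays. SPRY4 was 1.41-fold lower in TTR cells, at 7.96 (SD 0.15) in TTR and 8.45 (SD 0.10) in parental cells (−0.49 ± 0.12, adjusted p = 0.0182), also with no overlap. The SPRY4 call was lost without untreated TTR array 2 (0.0696) or 3 (0.0808) or untreated parental array 1 (0.0855) or 2 (0.0712), each of which left 1 gene called, over a range of 0.00271 to 0.0855.

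The phosphatases did not pass in this comparison. DUSP1 averaged 8.19 (SD 0.35) in untreated TTR and 7.65 (SD 0.31) in untreated parental cells, and the ranges overlapped (0.54 ± 0.17, adjusted p = 0.0677). It passed with array weights (0.59, adjusted p = 0.011), with the replicate number as a block (0.54, adjusted p = 0.025), and without untreated TTR array 1 (0.73, adjusted p = 0.0107) or untreated parental array 3 (0.72, adjusted p = 0.0192), over a range of 0.0107 to 0.258. DUSP10 averaged 6.62 and 6.32 (0.30, 95% confidence interval −0.01 to 0.60, adjusted p = 0.279) and DUSP2 4.30 and 4.53 (−0.23, −0.51 to 0.06, adjusted p = 0.404) in TTR and parental cells. DUSP5 (−0.03, −0.26 to 0.19) and DUSP6 (−0.03, −0.22 to 0.16) had estimates near 0, as had DUSP4 (0.07), DUSP8 (0.05) and DUSP16 (−0.01), with adjusted p from 0.783 to 0.977.

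With TRAIL, TTR and parental cells differed in 9 of the 10 genes, 3 higher and 6 lower in TTR cells. Over all genes 28% were higher and 26.4% lower, and the median difference was −0.54 for the 10 genes and −0.07 for all. DUSP1 averaged 10.67 (SD 0.17) in TTR and 11.95 (SD 0.07) in parental cells, 2.43-fold lower (−1.28 ± 0.17, adjusted p = 6.76e-06). DUSP2 averaged 4.72 (SD 0.11) and 5.98 (SD 0.12) and was 2.40-fold lower (−1.26 ± 0.13, adjusted p = 6.22e-07). Each of these groups lay wholly apart from its counterpart. DUSP5 was 1.95-fold lower in TTR cells (−0.96 ± 0.11), DUSP8 1.57-fold lower (−0.65 ± 0.21), DUSP6 1.5-fold lower (−0.58 ± 0.09) and SPRY4 1.42-fold lower (−0.50 ± 0.12). Higher in TTR cells were SPRY2, 1.85-fold, at 8.91 (SD 0.08) in TTR and 8.02 (SD 0.03) in parental cells (0.89 ± 0.09, adjusted p = 2.79e-07), DUSP10, 1.42-fold (0.50 ± 0.14), and DUSP16, 1.22-fold (0.29 ± 0.10, adjusted p = 0.0271). DUSP4 did not pass (0.23, 95% confidence interval 0.02 to 0.44, adjusted p = 0.0641).

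The calls nearest the threshold moved. DUSP8 was lost without TRAIL-treated parental array 1 (−0.32, adjusted p = 0.0729) and after median centring (−0.45, adjusted p = 0.0848), over a range of 1.63e-04 to 0.0848. DUSP16 was lost without TRAIL-treated TTR array 1 (0.24, adjusted p = 0.105) or 2 (0.28, adjusted p = 0.0669) or TRAIL-treated parental array 1 (0.27, adjusted p = 0.0652) or 3 (0.21, adjusted p = 0.115), and when the untreated arrays were left out of the fit (0.0564), over a range of 5.48e-04 to 0.115. DUSP10 was lost after quantile normalization (0.34, adjusted p = 0.0927, range 3.54e-04 to 0.0927). DUSP4 passed after median centring (0.43, adjusted p = 0.0016) and without TRAIL-treated parental array 1 (0.29, adjusted p = 0.0324), but stood at −0.01 after quantile normalization (adjusted p = 0.959). Median centring gave 4 higher and 5 lower, beside 6839 higher and 2391 lower over all genes. Quantile normalization gave 2 higher and 6 lower, beside 5117 higher and 3582 lower.

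**Figure D4:**
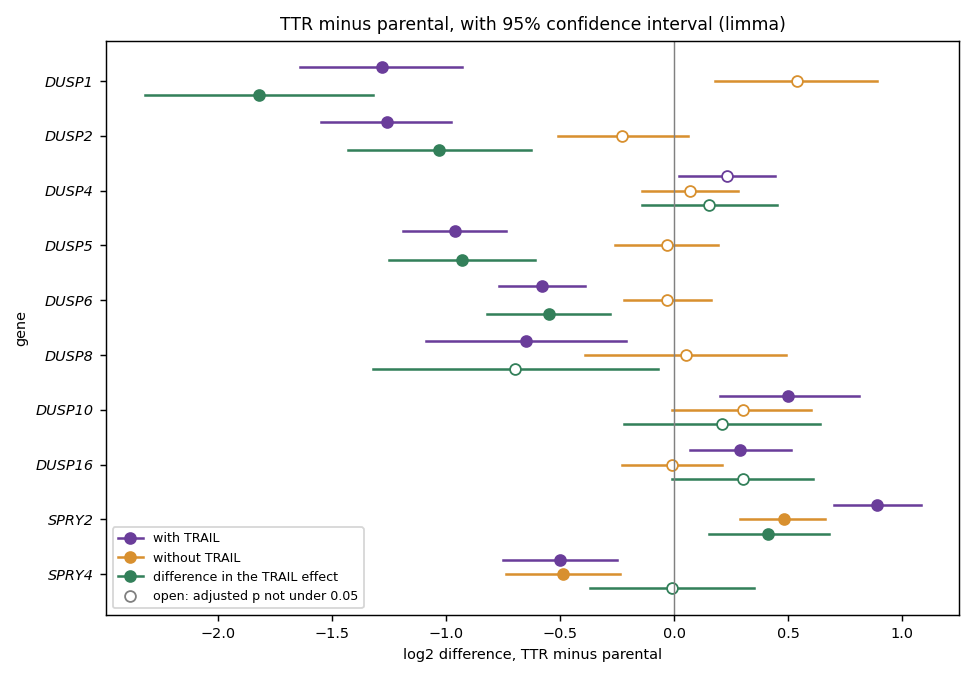
The x axis gives the log2 difference of TTR minus parental cells and the y axis the genes; purple marks cells with TRAIL, orange cells without it and green the difference between the TRAIL effects, as limma estimates with 95% confidence intervals (open points did not pass). Without TRAIL only SPRY2 (0.48) and SPRY4 (−0.49) have filled points, and with it DUSP1, DUSP2 and DUSP5 lie near −1.

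Ranked over the 4 groups, DUSP1, DUSP2, DUSP5, DUSP6, DUSP8 and SPRY4 had their highest mean in TRAIL-treated parental cells. DUSP4, DUSP10, DUSP16 and SPRY2 had it in TRAIL-treated TTR cells. For DUSP5 and DUSP6 the order was TRAIL-treated parental, TRAIL-treated TTR, untreated parental and untreated TTR, and only the untreated neighbours overlapped. For SPRY2 the order was TRAIL-treated TTR, untreated TTR, untreated parental and TRAIL-treated parental, and only the TTR groups overlapped. For DUSP4 every pair of neighbours in the order overlapped, and its means spanned 0.23 over the 4 groups, against 4.29 for DUSP1. Within SPRY4 the TRAIL-treated TTR arrays (8.36 to 8.59) overlapped the untreated parental arrays (8.34 to 8.52).

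Other phosphatases of the same families, from a list of 17 of which 16 were measured, were called 1 higher and 1 lower with TRAIL in TTR cells (median −0.10) and 5 higher and 6 lower in parental cells (median −0.10). Over all genes 3.27% were called higher and 2.55% lower in TTR cells, and 28.9% and 29.9% in parental cells. STYX, a catalytically dead relative, fell in both lines, with −0.58 ± 0.11 in TTR and −2.03 ± 0.11 in parental cells. DUSP7, an ERK phosphatase closely related to DUSP6, rose by 0.57 ± 0.13 in TTR cells (adjusted p = 0.0136), and its change in parental cells was 0.82 ± 0.13. In parental cells DUSP14 (−1.50 ± 0.11) and DUSP11 (−1.31 ± 0.10), which encodes an RNA phosphatase, also fell, and DUSP28 rose (1.58 ± 0.12).

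Of 16 measured genes among 18 other Sprouty, SPRED and RAS or MAP kinase brakes, 0 passed with TRAIL in TTR cells by limma, with 1 higher and 2 lower at an unadjusted p under 0.05. In parental cells 2 rose and 8 fell (median 0.01 in TTR and −0.34 in parental cells). The shares called over all genes were 3.27% higher and 2.55% lower in TTR cells, and 28.9% and 29.9% in parental cells. At an unadjusted limma p under 0.05, 3794 of the 18417 genes passed in TTR cells in either direction. These calls were not recomputed under other scalings. The RAS brakes SPRED1 (−1.21 ± 0.12) and SPRED2 (−1.12 ± 0.11) and the RAF inhibitor PEBP1 (−0.92 ± 0.09) fell in parental cells, and NF1, a RAS GTPase-activating protein, rose (1.11 ± 0.12). In TTR cells NF1 stood at 0.41 (adjusted p = 0.0606) and PEBP1 at −0.24 (adjusted p = 0.125).

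The kinase cascades on which these brakes act were counted in the same way. With TRAIL, 3.27% of all genes were called higher and 2.55% lower in TTR cells, and 28.9% and 29.9% in parental cells. At an unadjusted limma p under 0.05, 3794 of the 18417 genes passed in TTR cells in either direction. The calls in these pathway lists were not recomputed under other scalings, and after median centring 8608 of the 18417 genes were called lower in parental cells. Of 15 measured genes of the RAS-RAF-MEK-ERK cascade, 0 rose and 1 fell in TTR cells by limma (0 higher and 4 lower at an unadjusted p under 0.05), and 2 rose and 9 fell in parental cells. RPS6KA3 (−1.77 ± 0.11), an ERK-activated kinase, and the adaptor GRB2 (−1.39 ± 0.13) and exchange factor SOS1 (−1.40 ± 0.15), which load RAS, were among the falls in parental cells. RPS6KA1 fell in both lines, with −0.36 ± 0.10 in TTR (adjusted p = 0.0475) and −0.82 ± 0.10 in parental cells. Of 20 measured genes of the JNK and p38 cascades, 0 passed in TTR cells (2 higher and 3 lower at an unadjusted p under 0.05), and 3 rose and 13 fell in parental cells. MAP2K4, which activates JNK, fell in parental cells (−1.70 ± 0.11), as did the JNK genes MAPK8 (−1.38 ± 0.11) and MAPK9 (−1.33 ± 0.12) and the upstream kinase MAP3K2 (−1.32 ± 0.12). In TTR cells MAP3K8 stood at 0.49 (adjusted p = 0.052) and MAP3K11 at 0.39 (adjusted p = 0.0797).

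Of 17 measured transcription factors and other outputs induced by ERK, limma called 12 higher and 0 lower in TTR cells. Over all genes the shares called were 3.27% and 2.55%. At an unadjusted p under 0.05 the counts were 14 and 1, and 3794 of the 18417 genes passed in either direction. In parental cells 13 were higher and 3 lower, beside 28.9% and 29.9%. Their median was 0.53 in TTR and 1.79 in parental cells. EGR1 rose 29.8-fold in TTR and 38.8-fold in parental cells, and JUNB 6.63-fold in TTR and 17.8-fold in parental cells. FOS rose 23.1-fold in TTR and 72.1-fold in parental cells, and FOSB 11.4-fold and 70.8-fold. The difference between the TRAIL effects passed for FOSB (−2.64 ± 0.18), FOS (−1.64 ± 0.20) and JUNB (−1.43 ± 0.14), and did not pass for EGR1 (−0.38 ± 0.17, adjusted p = 0.0847).

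The genes whose pattern over the 12 arrays was most like that of each brake were found by Pearson's r, which here mostly reflects the same 4 group means and is given as a description. RNU11, the U11 small nuclear RNA of the minor spliceosome, was most like DUSP1 (r = 0.997). It averaged 11.05 with TRAIL and 8.74 without it in TTR cells, and 11.97 and 8.43 in parental cells. The uncharacterised locus LOC731157 was most like both DUSP5 (r = 0.993) and DUSP6 (r = 0.997). HAPLN4, a link protein of the extracellular matrix, was most like DUSP2 (r = 0.993), and CYTH3, an exchange factor for ARF GTPases, most like SPRY2 (r = 0.987). CYTH3 averaged 7.73 with TRAIL and 7.64 without it in TTR cells, and 6.68 and 7.03 in parental cells. For the others the likest genes were IGSF22 for DUSP8 (0.972), GRIN3B for SPRY4 (0.960), TNAP for DUSP10 (0.935), KDM3B for DUSP16 (0.896) and JADE2 for DUSP4 (0.868). The group means of IGSF22 (3.33 to 3.82) and TNAP (2.94 to 3.61) lay below the lowest array median of 4.24, so part of their signal can be background. Among TRAIL-treated parental arrays the SD was 0.31 for IGSF22 and 0.63 for DUSP8, so their match can also reflect spread within that group. JADE2 spanned only 0.43 over the 12 arrays. Against the mean of all 10 genes after scaling, the likest were LOC100131496 (0.955), the microRNA gene MIR21 (0.954), the pattern-recognition gene PTX3 (0.948) and the chemokine genes CXCL2 (0.945) and CXCL8 (0.943).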

How the data were processed

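RNA from 12 samples was measured on one-colour Affymetrix arrays. The deposited values are log2 expression per feature, made by the authors with RMA in Affymetrix Power Tools, per the submitters' processing notes; versions and settings were not given in the sources used here, nor was a build. RMA corrects background and brings arrays to a shared scale, so real shifts over many genes can be reduced. Of 33252 features, 19460 named 1 gene, 1754 several and 12038 none; 19429 matched RefSeq (GRCh38.p14), and no symbol changed. The feature with the highest mean over the 12 arrays stood for a gene, which gave 18417 genes.

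With lmFit and eBayes of limma 3.58.1 (R 4.3.3), 1 mean per group was fitted to all 12 arrays together, without a block, with 8 residual degrees of freedom. Benjamini-Hochberg adjusted p under 0.05 over all 18417 genes was a call. With 3 arrays a side, the smallest p of an exact permutation test is 0.1, and none was used. The number of arrays limits the precision. No detection measure was used. No 2 arrays were identical.

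Replicate numbers come from the labels. Deviations of same-numbered arrays correlated at 0.32, 0.15 and 0.40 in the TRAIL comparison of TTR cells, where the numbers were taken to pair arrays; the other comparisons each had a pair at 0.06 or less.

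The alternatives were median centring, quantile normalization, array weights, a filter on low values, another variance prior, the mean of features per gene, fewer groups in the fit, the replicate block and leaving out each array in turn.

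All 10 genes are named. From each of 5 pathway lists, up to 4 called genes with the smallest p in each TRAIL comparison were named, or 2 as values where none was called, and the likest genes by Pearson's r. The 10 genes and the lists were chosen with earlier results of these data known. Promoter motifs were searched with Python 3.11.15.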

Additional observations from a re-analysis of the deposited data

Results flagged for a closer look

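For 5 of the 10 genes the test of the difference itself found that the response to TRAIL differed between TTR and parental cells. Over all 18417 genes the same test called 6852, with 14.3% below 0 and 22.9% above it. The difference, TTR minus parental on the log2 scale, was −1.82 for DUSP1, −1.03 for DUSP2, −0.93 for DUSP5, −0.55 for DUSP6 and 0.41 for SPRY2. Their adjusted p-values from limma were 1.82e-05, 3.79e-04, 1.46e-04, 0.00281 and 0.0147. The first 4 kept direction and call in each of 19 alternatives, and SPRY2 in 18, the exception being quantile normalization. With 3 arrays in each group, no single array was tested as an outlier.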

How the results depend on the processing

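Of the 29 calls made for the 10 genes over the 5 comparisons, 19 held under every alternative run and 0 reversed. Leaving out arrays one at a time gave 3 to 5 called genes for TRAIL in TTR cells (3 without untreated TTR array 2) and 1 to 3 for TTR against parental cells without TRAIL. Values that did not pass changed sign as follows. Quantile normalization gave DUSP4 0.18 for TRAIL in parental cells, −0.01 for the lines with TRAIL and −0.09 for the difference in the TRAIL effect, and DUSP8 −0.01 for TRAIL in TTR cells and DUSP16 0.00 for the lines without TRAIL. Median centring gave DUSP4 −0.05, DUSP8 −0.01 and SPRY2 −0.05 for TRAIL in TTR cells, DUSP16 0.01 for the lines without TRAIL and SPRY4 0.17 for the difference. Array weights gave DUSP5 0.05 for the lines without TRAIL and SPRY4 0.00 for the difference. Without single arrays the lines without TRAIL gave −0.13 to 0.03 for DUSP5, −0.06 to 0 for DUSP6, −0.01 to 0.15 for DUSP8 and −0.06 to 0.03 for DUSP16, and the difference gave −0.12 to 0.09 for SPRY4. The causes were not tested. Over all genes, 1072 calls for TRAIL in TTR cells became 2391 after median centring, 3199 with array weights, 1709 without the parental TRAIL arrays and 379 to 1487 without single arrays. For the lines without TRAIL 1310 calls became 2386 with array weights and 782 to 1553 without single arrays. With the replicate block the called genes among the 10 numbered 6 for TRAIL in TTR cells, 8 in parental cells, 3 for the lines without TRAIL (DUSP1 was added, adjusted p = 0.025), 10 with TRAIL (DUSP4 was added, adjusted p = 0.0381) and 5 for the difference. In the same order, the block called 1567, 11138, 1672, 10384 and 7276 of all 18417 genes. Apart from the added calls named here and DUSP2 in TTR cells, the block changed no call among the 10. A block fit of only the groups compared, chosen after seeing the data, called 2670 genes for TRAIL in TTR cells. With no detection measure, how far background limits the genes nearest the array median (DUSP2, DUSP8 and DUSP16) was not tested.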
